A study of Mus musculus with 18 samples.

Results

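Genes for 10 nuclear receptors with known roles in macrophages were described in the ATAC-seq peak catalogs of the series: Pparg, Ppard, Nr1h2, Nr1h3, Rxra, Rxrb, Rara, Vdr, Nr3c1 and Nr1d1. They are 10 of the 21938 protein-coding genes of the GENCODE M21 annotation. A peak was assigned to a receptor gene when it lay in the gene body or within 50 kb of the most upstream annotated start site. By this rule the 10 genes held 175 of 82391 reference peaks, 179 of 84660 summits and 108 of 59617 extended regions. No extended region was counted for more than 1 of the 10 genes. ATAC-seq marks exposed DNA through the insertion of sequencing adapters by the Tn5 transposase. Wild type mice gave the bone marrow, from which macrophages (BMDMs) had been differentiated in culture. All cells were exposed to the vehicle DMSO for 1 h. One group then stayed untreated, 4 groups received LPS (a Toll-like receptor ligand) and 4 groups received the cytokine IL-4, both at 10 ng/mL, for 30 min, 1 h, 2 h or 4 h. There were 9 groups with 2 libraries each.

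Nuclear receptors are transcription factors that carry a DNA-binding domain and a ligand-binding domain, and most change the set of coregulators they bind when a lipid, steroid or vitamin ligand enters the pocket. PPARs, LXRs, RAR and VDR bind DNA as heterodimers with an RXR, on repeats of a short half-site whose spacing differs between partners. The glucocorticoid receptor binds an inverted repeat as a homodimer, and REV-ERBα binds a half-site with a flank rich in A and T and represses transcription. In macrophages, these receptors are known for the control of lipid uptake, cholesterol efflux, inflammatory genes and the circadian clock.

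The 3 catalogs had been pooled by the authors over all 18 libraries and hold no value per library, so that no level in LPS, IL-4 or untreated cells could be given for any receptor gene, and no test between groups was possible. Each summit carries a score as deposited. Its scale is not stated, it takes only 219 distinct values, and it was used here only to order summits within the catalog. Over all summits the score ran from 102 to 2781 with a median of 737. The depth of the libraries is not known from the catalogs. The tissue was checked against markers. All 8 macrophage markers (Csf1r, Adgre1, Cd68, Itgam, Fcgr1, Mertk, Lyz2 and Spi1) carried a start site peak, meaning a reference peak no more than 1000 bp from an annotated start. Of 10 markers of other cells, 3 had one, with best scores of 634 at Pax5, 748 at Flt3 and 613 at Col1a1.

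Start site peaks were found in 10 of the 10 receptor genes, which a 95% Wilson interval puts at 72.2% or more. The share over all protein-coding genes was 56.5%. The receptor genes had been chosen as genes active in macrophages, so that a share above that of all genes was not independent of the choice. At the most upstream start site alone, 8 of 10 genes had a peak, against 52.1% of all coding genes, and Rara and Vdr did not. Counted by start site, 51 of the 79 start sites of the 10 genes (64.6%) had a peak, against 48.8% of all start sites of coding genes. The share was 72.0% for the 50 start sites of protein-coding transcripts and 51.7% for the 29 start sites of other transcripts. In none of the 10 genes did every annotated start site have a peak. Close start sites of a gene share peaks, as for 13 of 16 at Nr1h2, so the counts by start site are not of independent sites. The best start site score was highest at Rara (1812), followed by Rxrb (1747), Nr1d1 (1670), Rxra (1657), Nr1h3 (1606), Ppard (1594), Nr3c1 (1543), Nr1h2 (1493), Vdr (1224) and Pparg (603). Their median of 1600 stood beside a median of 1456 over all coding genes with a start site peak. The scores of Rxra and Nr1h3 came from start sites of processed transcripts, and the best scores at their coding start sites were 823 and 1025. In the order above, the value of Pparg stood apart from the other 9 and was at the 6.16th percentile of coding genes with a start site peak. No error belongs to these scores, so that neighbours in this order cannot be told apart beyond the score itself.

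**Figure D1:**
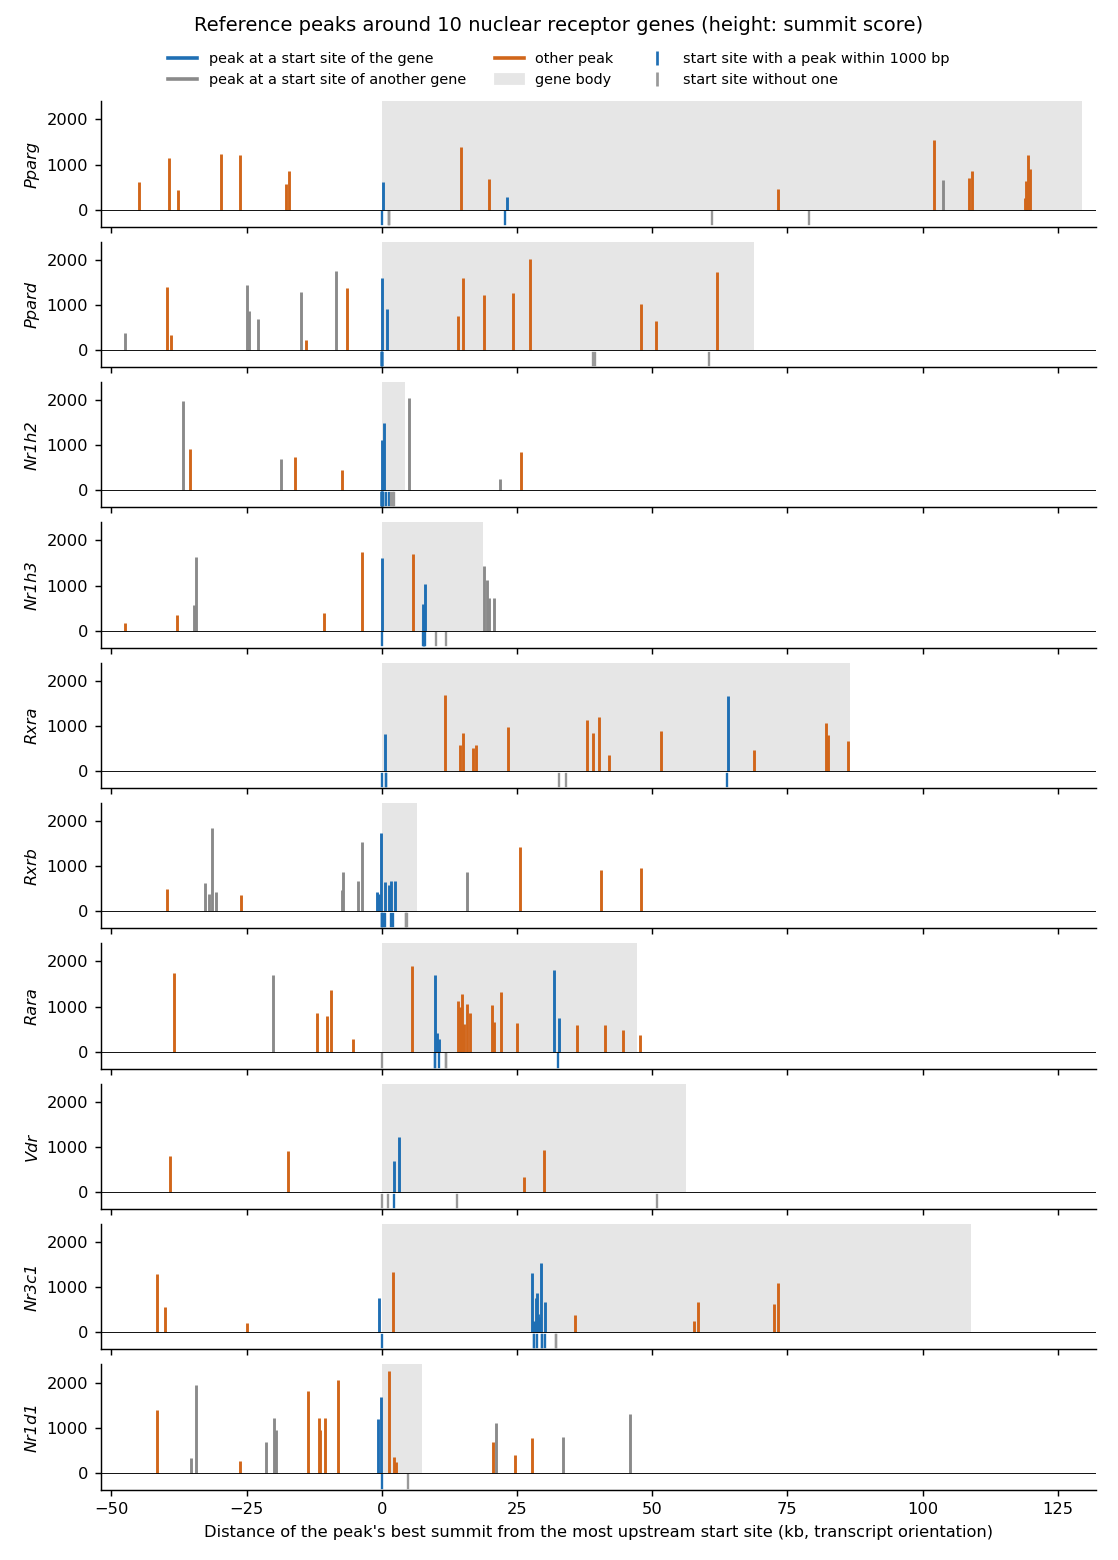
Each line is a reference peak, placed on the x axis by the distance of its best summit from the most upstream start site of the gene (kb, positive in the direction of transcription) and drawn on the y axis to the height of its score. The gene body is shaded, and ticks under each axis mark annotated start sites, in blue where a peak lay within 1000 bp. The peaks of Rxra all lay in the gene body, the blue peaks of Nr3c1 crowded 27.8 to 30.1 kb downstream of the most upstream start site, and the low start site peaks of Pparg contrast with higher peaks upstream and far into the gene.

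The PPARs are sensors of fatty acids. Pparg, known in macrophages for genes of lipid uptake and storage, lies on the plus strand at chr6:115360951-115490399 (mm10). It had 20 reference peaks in 13 regions, with scores from 266 to 1543 and a median of 675. Of its 7 start sites, 2 had a peak. The most upstream site had the peak chr6:115361044-115361257, with a score of 603 and its summit 126 bp inside the gene. The start site at 115383699, 22748 bp further, had only a peak with a score of 290, whose edge lay 353 bp away. The start site at 115422066, from which the transcript Pparg-201 begins, was 12135 bp from the nearest peak. The letters before a start site with a peak and before that site without one are shown to compare the 2 promoters, with each CG dinucleotide in capitals, on the plus strand at chr6:115360801-115360950 and chr6:115421916-115422065.
Pparg, most upstream start site: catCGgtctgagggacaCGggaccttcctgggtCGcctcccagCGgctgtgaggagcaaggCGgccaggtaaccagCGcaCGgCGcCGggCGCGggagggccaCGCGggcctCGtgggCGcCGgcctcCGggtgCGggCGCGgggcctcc
Pparg, start site of Pparg-201: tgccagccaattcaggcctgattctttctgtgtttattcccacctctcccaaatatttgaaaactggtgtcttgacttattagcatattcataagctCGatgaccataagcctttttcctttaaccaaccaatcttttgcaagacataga
The stretch at the site with the peak was 78.0% G and C and held 20 CG dinucleotides. The stretch at the site without a peak was 38.7% G and C and held 1. These 2 stretches were chosen for their contrast, and other start sites of Pparg did not follow it. From 250 bases before to 50 after the start, the sites at 115362292 and 115362349 had no peak at 66% and 62.7% G and C, although the peak with a score of 603 lay only 1035 and 1092 bp away, and the site at 115383699 had its peak at 31.7%. The scores of Pparg were higher away from its start sites. Upstream, 7 peaks lay between 17.2 and 44.9 kb before the gene with scores from 430 to 1224, and none of the 13 regions of Pparg was closer to the start site of another coding gene. The best scored peak, chr6:115462969-115463282, lay 102 kb into the gene with a score of 1543. Its summit was inside a coding exon, and 5 annotated transcripts share that place. Another group of 4 peaks followed 119 to 120 kb into the gene, with scores from 266 to 1200.

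Ppard, which encodes the broadly expressed PPARδ, lies on the plus strand at chr17:28232700-28301474. It had 20 peaks in 14 regions and the highest median score of the 10 genes, 1242, with a range from 211 to 2021. The peak chr17:28232464-28232836, with a score of 1594, lay over 6 start sites that fall within 107 bp, and a second peak with a score of 911 followed 0.934 kb downstream. The 3 start sites inside the gene had no peak. The introns of Ppard held 7 peaks with scores from 644 to 2021. The best of them, chr17:28259886-28260433, was 27.4 kb downstream of the start and had a score at percentile 98.3 of all summits. Upstream, 6 peaks lay at start sites of other annotated genes, among them Def6, a gene for a guanine nucleotide exchange factor, and Zfp523.

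The LXRs are sensors of oxysterols and are known for the control of cholesterol efflux. Nr1h2, which encodes LXRβ, lies on the minus strand at chr7:44549616-44553951 and is the shortest of the 10 genes. Only 2 of its 10 peaks lay at its own start sites. They were chr7:44553321-44553610, with a score of 1493, and chr7:44553915-44554118, with a score of 1106, and together they lay within 1000 bp of 13 of 16 start sites. No peak of the gene was counted as intronic, since peaks within 1000 bp of a start site were counted there. The highest score in its window, 2048, belonged to a peak at the start site of Pold1, a subunit gene of DNA polymerase delta. Of its 8 regions, 6 were closest to the start site of another gene.

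Nr1h3, which encodes LXRα, known to be abundant in macrophages, lies on the minus strand at chr2:91184061-91202834. Its 14 peaks in 9 regions had scores from 175 to 1747 with a median of 1025. The start sites fell into separate groups. The most upstream one, that of a processed transcript, lay in the peak chr2:91202643-91203061 with a score of 1606. The start sites of its coding transcripts lay 7683 to 7949 bp downstream, where the peaks chr2:91194680-91195013 and chr2:91195108-91195255 had scores of 1025 and 583. Between both groups, the intronic peak chr2:91196743-91197183 had a score of 1708. The highest score, 1747, was that of a peak 3.62 kb upstream of the gene, chr2:91206257-91206918, which was 662 bp wide. Its nearest coding start site was that of the neighbour Acp2, 3523 bp away. The most upstream start site of Nr1h3 lies 51 bp from that of Acp2, a lysosomal acid phosphatase gene on the opposite strand. The peak there counted for both genes. The bases between these 2 start sites are shown because a single peak spans them, with CG dinucleotides in capitals, on the minus strand at chr2:91202835-91202884.
Nr1h3 and Acp2: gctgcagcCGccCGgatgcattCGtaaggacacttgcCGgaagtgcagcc

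RXRs are the shared partners of the receptors above. Rxra lies on the plus strand at chr2:27676440-27762957. All of its 17 peaks, in 12 regions, lay in the gene body, and none lay in the 50 kb upstream. None of its regions was closest to another coding gene. At its first start sites the peak chr2:27676822-27677209 had a score of 823. A higher start site score, 1657, was found 64.0 kb downstream at chr2:27740212-27740612, beside the start site of the processed transcript Rxra-205. Its 2 coding start sites at 27709292 and 27710583 had no peak. The introns held 14 peaks, 11 of them in the first intron of at least 1 coding transcript. The best, chr2:27688019-27688361, lay 11.7 kb into the gene with a score of 1696.

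Rxrb, on the plus strand at chr17:34031812-34038399 in the major histocompatibility complex, showed another layout. It had 21 peaks in 10 regions, and an 11th region reached its window only through the widening of a peak that lay outside. The best summit of each of the 11 regions was closest to the start site of another coding gene. Rxrb and Slc39a7, a zinc transporter gene on the opposite strand, start 130 bp apart. The peak chr17:34031506-34032111 spans both start sites with a score of 1747, and 4 peaks were shared by the 2 genes. The bases between the 2 start sites are shown for the same reason as those of Nr1h3, on the plus strand at chr17:34031683-34031811.
Slc39a7 and Rxrb: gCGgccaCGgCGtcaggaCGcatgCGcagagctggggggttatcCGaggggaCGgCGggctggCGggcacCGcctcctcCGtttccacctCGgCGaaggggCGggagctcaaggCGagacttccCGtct
This stretch held 16 CG dinucleotides in 129 bases. Within 2.52 kb of the start of Rxrb, 7 peaks formed a single extended region. Its best summit was closest to Slc39a7, while 4 of the 7 peaks were closest to Rxrb, and those other than the peak with 1747 had scores from 384 to 675. The highest score in the window, 1838, was that of a peak at the start site of H2-K1, a class I histocompatibility gene.

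Rara, the retinoic acid receptor α gene, lies on the plus strand at chr11:98927818-98974942. With 26 peaks and 15 regions it had the most of the 10 genes. No peak lay at its most upstream start site, the nearest being 5265 bp away. The peak chr11:98937446-98937722, with a score of 1708, lay over the start sites at 98937698 and 98937718. The start site at 98960412, from which the coding transcript Rara-202 begins, had the peaks chr11:98959450-98959827 and chr11:98960342-98960573, with scores of 1812 and 737. Between these start sites, 6 peaks at chr11:98941815-98944336 formed a single region with scores from 613 to 1272. Some of them adjoined, as chr11:98942291-98942475 began where chr11:98941815-98942290 ended. The highest score of the gene, 1890, was found at chr11:98933189-98933526, between the first start site and the next. Of 14 intronic peaks, 11 lay in the first intron of at least 1 coding transcript.

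Vdr, the vitamin D receptor gene on the minus strand at chr15:97854425-97910630, had the fewest peaks, 6 in 5 regions. Of 5 start sites, 1 had a peak, that of Vdr-201 at 97908310. There, the peak chr15:97908214-97908379 covered the start site with a score of 685, and the peak chr15:97907244-97907497, whose summit lay 920 bp downstream, had a score of 1224. The start sites at 97910630 and 97909562, upstream of it, had none. The other 4 peaks of Vdr had scores from 332 to 923.

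Nr3c1, the glucocorticoid receptor gene on the minus strand at chr18:39410545-39519421, had 18 peaks in 8 regions. Of these peaks, 9 lay at start sites, the largest number of the 10 genes. A run of 8 peaks between 39489242 and 39491786, 27.8 to 30.1 kb downstream of the most upstream start site, made up a single extended region of 3.95 kb with scores from 242 to 1543. Of all 59617 extended regions, 79 held at least 8 peaks. The run included a peak of only 15 bp, chr18:39490988-39491002, which began where chr18:39490524-39490987 ended. The number of peaks thus depends on how continuous stretches were divided. Of the 8 start sites other than the most upstream one, 6 lay within 1000 bp of the peaks of this run. The most upstream start site had a peak with a score of 769, 425 bp away. A further peak 2.02 kb inside the gene, chr18:39517297-39517490, had a score of 1332.

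Nr1d1, the gene for the clock repressor REV-ERBα, lies on the minus strand at chr11:98767932-98775333. It had 23 peaks in 13 regions, with scores from 226 to 2258. The start site peak chr11:98775266-98775619 had a score of 1670, and the next peak upstream, chr11:98775791-98776119, had a score of 1188. The highest score of all 10 genes, 2258, belonged to the intronic peak chr11:98773651-98774249, 1.37 kb downstream of the start, and stood at percentile 99.8 of all summits. Upstream, the peak chr11:98783260-98783671, 8.16 kb away, had a score of 2061. Of the 13 regions, 11 were closest to the start site of another coding gene. Thra, the thyroid hormone receptor gene whose 3′ end faces that of Nr1d1, and Msl1 and Casc3 on the other side had start site peaks in this window.

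The peaks of Nr1d1 held the E-box CACGTG, a palindrome that clock factors and other helix-loop-helix proteins are known to bind, 9 times in 6 of 23 peaks. Of the 9, 5 lay in peaks closest to Nr1d1, 2 in peaks closest to Thra and 2 in a peak closest to Msl1. Over all reference peaks, 5.81% held at least 1. The other 9 genes together had 10 E-boxes in their peaks, between 0 and 3 per gene. The intronic peak with the score of 2258 held 3. At least 3 were found in 45 of all 82391 peaks, and in 28 of the 3551 peaks that were at least 500 bp wide. Over coding genes, whose median was 0 per window, 8 genes had 9 or more E-boxes in the peaks of their window, a count not adjusted for the number of peaks. Besides Nr1d1 itself, 2 of these were its neighbours Thra and Msl1, whose windows overlap that of Nr1d1, and 5 lay elsewhere. The 3 sites of this peak are shown with E-boxes in capitals, on the minus strand at chr11:98773839-98773899 and chr11:98774134-98774179, followed by the site in the peak 8.16 kb upstream, on the plus strand with 10 bases to each side of chr11:98783542-98783547. A match to these letters is a description of the sequence and not a binding site.
Nr1d1 intron, first pair: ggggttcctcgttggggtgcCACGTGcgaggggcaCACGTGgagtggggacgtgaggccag
Nr1d1 intron, remaining site of the same peak: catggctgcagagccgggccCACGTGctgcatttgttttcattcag
Nr1d1, upstream peak: gggggtggggCACGTGgccctgcccg

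**Figure D2:**
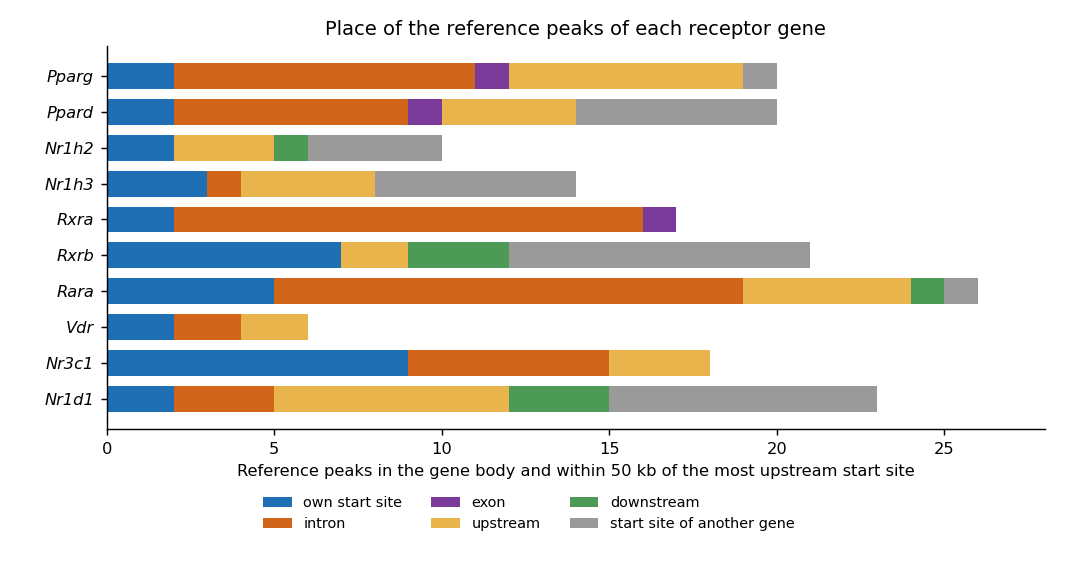
Bars give the number of reference peaks of each receptor gene on the x axis, divided by place: within 1000 bp of a start site of the gene, in an intron, in an exon, upstream, downstream, or within 1000 bp of a start site of another gene. Intronic peaks made up 14 of 17 peaks at Rxra and 14 of 26 at Rara, whereas Nr1h2 and Rxrb had none.

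Over the 10 genes, 36 of 175 peaks lay at own start sites, 56 in introns, 3 in exons, 37 upstream, 8 downstream and 35 at start sites of other annotated genes, coding or not. Of the 108 extended regions, 47 (43.5%, 95% Wilson interval 34.6 to 52.9%, counting error only) were closest to the start site of another coding gene, as judged from the best summit of each region alone. Over the windows of all coding genes this share was 57.2%, with a region counted for each window it lies in. Without the region at the edge of the window of Rxrb, 46 of 107 (43%) were. Which gene a region acts on was not measured. These regions were spread unevenly. Rxrb had 11 of 11, Nr1d1 11 of 13, Nr1h2 6 of 8, Nr1h3 6 of 9, Rara 7 of 15, Ppard 5 of 14 and Vdr 1 of 5, and Pparg, Rxra and Nr3c1 had 0. The share moved with the window, as 28.6% with 20 kb in place of 50 kb and 61.3% with 100 kb.

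The density of extended regions ranged from 4.71 per 100 kb of window at Vdr and 5.04 at Nr3c1 to 13 at Nr1d1 and 15 at Rara. Its median over the 10 genes was 8.89, against 4.00 over all coding genes and 6.34 over coding genes with a start site peak. All 10 genes exceeded the median of all coding genes, and 8 exceeded the median of those with a start site peak. Vdr and Nr3c1 did not. With other windows or entries not all 10 stayed above the median of all coding genes, as Nr3c1 was at percentile 49.9 with 20 kb and 49.1 with 100 kb, and Vdr at 49.7 when summits were counted. The median percentile of the 10 genes was 81.2 among all coding genes and 71.2 among those with a start site peak. At Rxrb, Nr1d1, Nr1h2 and Nr1h3 the regions counted were mostly those closest to a neighbour.

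Summits of the 10 genes had a median score of 845 (quartiles 583 and 1272), against 737 (486 and 1153) for all summits. Those within 1000 bp of a start site of any gene had a median of 823 (n = 73), below the 990 of all such summits. Those further away had a median of 850.5 (n = 106), above the 664 of all such summits. In 6 of the 10 genes, Pparg, Ppard, Nr1h3, Rxra, Rara and Nr1d1, the best peak away from all start sites had a higher score than the best start site peak. This held for 36.9% of all coding genes with a start site peak, whose windows hold other numbers of peaks, and no adjustment for that number was made. The scores were close at Rxra (1696 against 1657) and Rara (1890 against 1812). The best peak of Nr1d1 lay 1.37 kb from the start, not far beyond the limit of 1000 bp, and that of Nr1h3 was closest to Acp2. In the 4 genes outside these 6, the best score away from start sites was 923 at Nr1h2, 1418 at Rxrb (chr17:34057264-34057543), 923 at Vdr (chr15:97880619-97880817) and 1332 at Nr3c1. The peaks of the 10 genes had a median width of 232 bp, against 227 bp for all reference peaks. The widest peak of a gene ranged from 254 bp at Vdr to 732 bp at Nr1d1, where it lay at the start site of Casc3. At Pparg it was an upstream peak of 352 bp, chr6:115330973-115331324. At Ppard it was an intronic peak of 607 bp, chr17:28256751-28257357, with a score of 1272. At Nr3c1 it was a start site peak of 464 bp, chr18:39490524-39490987, with a score of 878, and at Rara the intronic peak of 476 bp, chr11:98941815-98942290.

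Start sites with and without a peak differed in base composition, as they did over all genes. From 250 bases before to 50 after the start, the ratio of observed to expected CG dinucleotides had a median of 0.847 at the 51 start sites of the receptor genes with a peak and of 0.231 at the 28 without. Over all coding genes the medians were 0.771 and 0.251. A ratio of at least 0.6 was found at 35 of the 51 (68.6%) and at 2 of the 28 (7.14%), near the 70.4% and 12.5% of all coding start sites with and without a peak. Start sites of a gene that lie close together share most of these bases, so that they are not independent. Several start sites with a peak had low ratios, such as 0.286 at the second start site of Pparg with a peak, 0.277 at the coding start site of Nr1h3 at 91195116 and 0.220 at Rxra-205.

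Genes of the same pathway were compared by the same rule. Of 39 other nuclear receptor genes, 17 (43.6%, 95% Wilson interval 29.3 to 59.0%) had a start site peak. The 56.5% of all coding genes lay inside this interval, and the difference was not tested. No extended region lay in the window of 8 of them (20.5%), close to the 19.9% of all coding genes. The highest start site scores among them were those of Esrra (2388), Nr2c2 (2232), Nr1d2 (2048), Rarg (1864) and Nr4a2 (1493). Nr1d2, the paralog of Nr1d1, thus had a higher start site score than Nr1d1, and Rarg a higher one than Rara. Of 15 coregulator genes, 14 had a start site peak, among them the corepressor Ncor1 (1406) and the coactivators Ncoa2 (1877) and Ncoa3 (1468). Ppargc1a, the PGC-1α gene, had no peak and no region. Of 20 known target genes of the receptors, 17 had a start site peak. The exceptions were Pdk4, a PPAR target, Cyp24a1, the vitamin D hydroxylase, and Cyp26b1, a retinoic acid hydroxylase. The highest target scores were found at the clock genes Arntl (2179), a target of REV-ERBα, and Per1 (2114), and at Fkbp5 (2114), targets of the glucocorticoid receptor. Of the LXR targets for cholesterol efflux, Abca1 had a start site score of 1683 and Abcg1 of 654, and Cd36, the PPARγ target for lipid uptake, had the lowest of this list, 402.

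**Figure D3:**
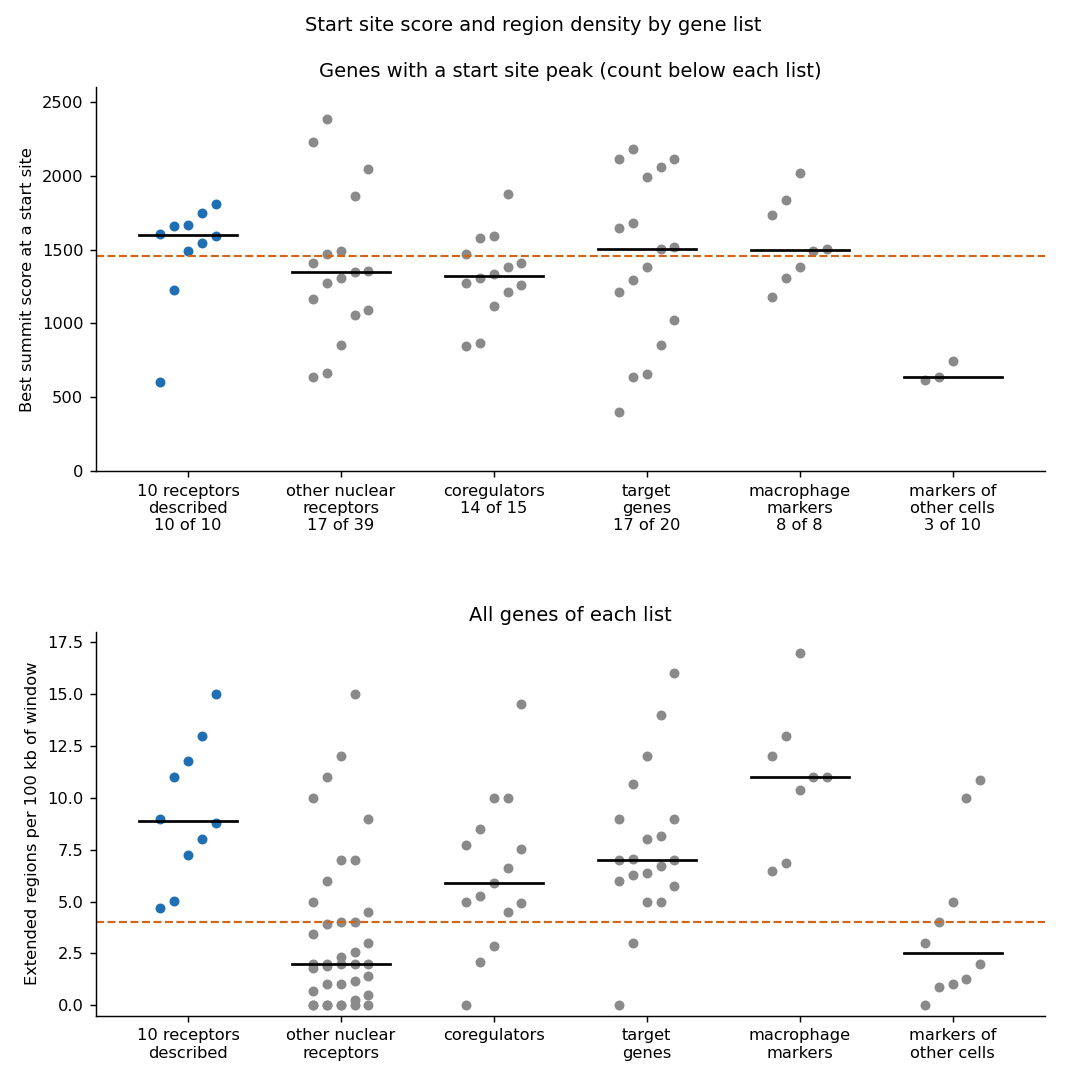
Each point is a gene, by list on the x axis. The upper y axis gives the best summit score at a start site for genes with a start site peak (counts under each list), and the lower one the number of extended regions per 100 kb of window for all genes. Black lines are list medians and dashed lines the medians over all coding genes, 1456 with a start site peak for the score and 4.00 for the density. Pparg is the low blue point at 603 in the upper panel, and the other nuclear receptors centre on 2.00 regions per 100 kb in the lower.

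The receptors' own motifs were searched on both strands in the 100 bp to each side of the best summit of each region. The half-site AGGTCA was found in 13 of 108 regions (12%, 95% Wilson interval 7.17 to 19.5%), against 13% of all 59617 regions, in 9 of the 10 genes. Pairs of half-sites (A or G, G, G or T, then TCA), as direct repeats with 0 to 5 bases between, inverted repeats with 0 or 1 base or everted repeats with 6 or 8 bases, were found in 0 of the 108 regions, against 0.661% of all. The glucocorticoid element GNACANNNTGTNC was found in 0, against 0.366%, and the REV-ERB element in 0, against 0.208%. With 108 regions, a count of 0 allows a share of up to 2.78% when taken as 3 counts, or 3.43% as the upper end of the Wilson interval. Either exceeds the share over all regions for each of them, so that a lower share was not detectable. When whole peaks were searched, a direct repeat with 1 base between was found in 2 of the 175 peaks (1.14%, all peaks 0.195%) and an everted repeat with 8 bases in 1 (0.571%, all peaks 0.0388%). Both direct repeats lay in peaks at start sites of neighbours, Pold1 beside Nr1h2 and H2-Ke6 beside Rxrb. The latter, at chr17:34027880-34027892, is shown on the plus strand with the repeat in capitals as an example of the letters searched.
H2-Ke6 start site peak: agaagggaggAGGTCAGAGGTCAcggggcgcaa

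Of the motifs of macrophage factors, that of PU.1 (GAGGAAGT) was found in 10 regions (9.26%, all regions 10.1%), that of AP-1 (TGANTCA) in 16 (14.8%, all 21%), that of C/EBP (TTGCNNAA) in 9 (8.33%, all 11.7%) and that of RUNX (TGTGGTT) in 7 (6.48%, all 8.30%). The share over all regions lay inside the interval of the receptor genes for each of these 4. The STAT6 motif (TTCNNNNGAA), known from the IL-4 response, was found in 2 regions (1.85%, interval 0.509 to 6.50%), at Pparg and Vdr, against 6.91% of all. In whole peaks it was found in 12 of 175 (6.86%), against 8.07% of all, and the distance between both shares was smaller than in the 100 bp windows. The NF-kB motif, known from the LPS response, was found in 11 regions (10.2%, interval 5.78 to 17.3%), against 5.34% of all, and in 19 of 175 whole peaks (10.9%), against 6.47%. These 11 regions were spread over Rxrb (3), Ppard (2), Nr1h2 (2), Nr1d1 (2), Nr1h3 (1) and Vdr (1). The motif GGGCGGG of SP and KLF factors was found in 17 regions (15.7%, all 11%). Among regions whose best summit lay over 1000 bp from any start site it was found in 2 of 73 (2.74%, all such regions 3.02%). The E-box was found in 9 regions (8.33%, all 4.81%), of which 3 were at Nr1d1, and in 8 of the 73 away from start sites (11%, all such regions 3.76%). Motif shares were compared for 12 motifs or groups of motifs without a test.

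**Figure D4:**
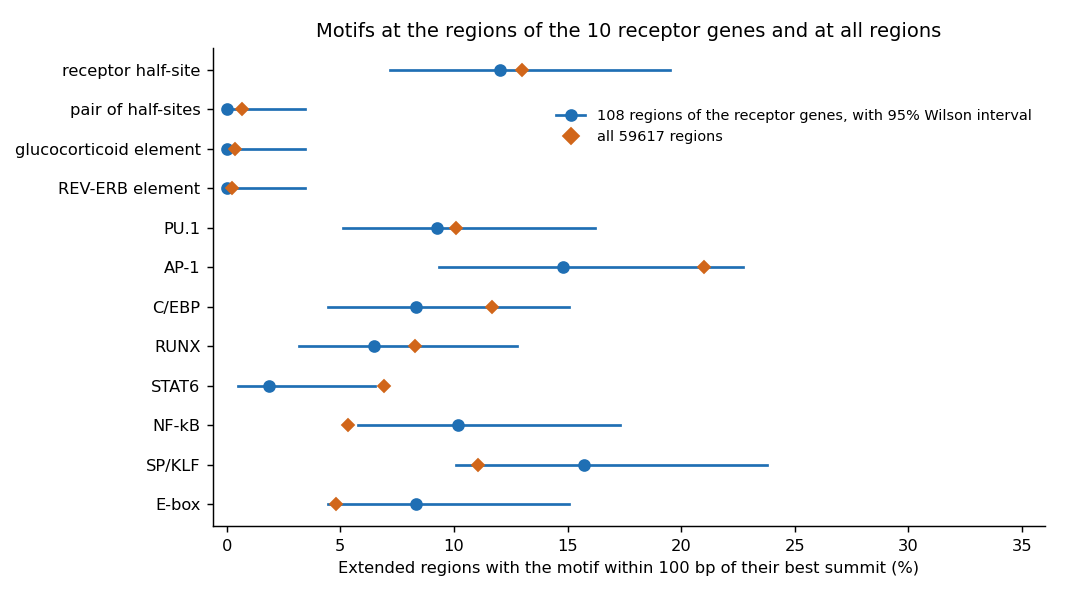
The x axis gives the percentage of extended regions with each motif within 100 bp of the best summit, for the 108 regions of the receptor genes (circles, lines are 95% Wilson intervals for counting error) and for all 59617 regions (diamonds). The diamond lies outside the line only for STAT6, above it, and for NF-kB, below it.

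AP-1 and PU.1 motifs were found in some of the peaks with high scores, and 4 of them, chosen after their values were seen, are shown with 10 bases to each side and the motif in capitals, on the plus strand. At Rara, the peak with a score of 1890 held AP-1 motifs at chr11:98933447-98933453 and chr11:98933482-98933488. At Rxra, the intronic peak with a score of 1696 held one at chr2:27688147-27688153, 34 bp from its summit. At Ppard, the peak chr17:28294440-28294828, 61.9 kb into the gene in an exon of a transcript with a retained intron, had a score of 1734 and held a PU.1 motif at chr17:28294637-28294644, 3 bp from its summit. Its best scored peak, with 2021, held neither motif.
Rara, first AP-1 motif: tctcggtaggTGAGTCActgccctggc
Rara, other AP-1 motif: cggatgtggcTGAGTCAcccggccatg
Rxra, AP-1 motif: gacagctttgTGACTCAggatgtcctc
Ppard, PU.1 motif: gcctgtctctGAGGAAGTgagtctgcag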

How the data were processed

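ATAC-seq libraries had been made by the authors from BMDMs and sequenced as single-end reads of 76 bases. Per the study's methods, adapters were removed with BBDuk, reads were trimmed with Trimmomatic 0.39 and mapped to mm10 with ShortStack, and files were handled with SAMtools 1.9. Peaks were called with MACS2 2.2.6 without a shift model or local background and with all duplicates kept. Peaks that passed a strict q-value cutoff in each sample and overlapped between replicates were retained. The absence of a peak therefore means that none passed these rules, and not that the DNA was closed. Duplicates can raise a peak, and no shift to the Tn5 cut site is named, which can displace a summit. The authors deposited 3 pooled BED lists. Reference peaks and extended regions hold positions only (the other columns are placeholders), and the summit list holds a score as deposited. All 59617 extended regions equalled reference peaks widened by 700 bp and joined, so that close peaks count as 1 region.

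Genes were taken from GENCODE M21 and sequence from GRCm38.p6, whose chromosomes are those of mm10. All 59617 regions ended inside their chromosome. RefSeq promoters (GRCm38.p6, from 250 bases before to 50 after the start) matched 9 of the 10 genes and served as a check of the sequence. Python 3.11.15, numpy 2.4.6, pysam 0.24.0 and samtools 1.23.1 were used. Scripts were tested on simulated data. Intervals are Wilson intervals at 95%. All 10 genes are named, with start site peaks, the best scored peak away from start sites and the widest peak of each, with neighbours at peaks, and, of the lists, genes without a start site peak or with the 5 highest scores. Further list genes and motifs printed were chosen after their values were seen. The 10 genes and the gene lists were chosen with earlier results of these data known. The numbers of peaks, start sites and windows were recomputed under alternatives. No library value, depth or replicate could be compared. Values of 1 neighbouring gene and 1 coregulator gene are not reported here, although both are counted in the totals.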

Additional observations from a re-analysis of the deposited data

How the results depend on the processing

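No paired analysis was possible because the catalogs hold no column per library, and for the same reason no replicate could be left out. Of 58 alternative values for 12 results, 51 stayed within 1.5 times the reported count or median, or within the Wilson interval of a share, and 7 did not. This limit is wide. Its upper side could not be passed by a count of 10 in 10 genes or by the median density percentile, so the tally does not measure stability. Start sites with a peak rose from 51 to 69 of 79 with a window of 2500 bp, which stayed inside it. The counts of start site peaks did not move beyond that: 10 of the receptor genes had one with windows of 500 or 2500 bp, 8 with only the most upstream start site (not Rara and Vdr) and 9 when peaks with lower scores than the median were left out (not Pparg). Without these lower scores, 100 reference peaks and 103 summits were counted in place of 175 and 179. With 100 kb in place of 50 kb there were 164 extended regions in place of 108. The share of regions closest to another coding gene was 28.6% with 20 kb and 61.3% with 100 kb. The half-site share was 5.56% within 50 bp (all regions 6.75%) and 21.3% within 200 bp (all regions 23.4%). These 7 moves follow from the construction of the alternatives, which admit fewer or more entries, genes or bases. The median density percentile ran from 76.0 to 89.2 over the other windows, entries and filters. It was 71.2 among genes with a start site peak, an alternative chosen after seeing the data.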
